A study of Mus musculus with 2 samples.

Results

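The ATP-binding cassette (ABC) transporter genes of alveolar macrophages, apart from the sterol exporters Abca1 and Abcg1, were examined on 2 Affymetrix arrays. The genes were chosen by symbol: every gene of the subfamilies ABCA to ABCG whose name is Abc, a letter from a to g and a number, with Abca1 and Abcg1 left out. This gave 46 of the 22180 genes measured, each with 1 row of the array table. The study asked what loss of the lipid kinase PIKfyve does to gene expression in the resident macrophages of the lung airspaces. The array labelled knockout (the knockout-labelled array below) holds RNA of DAPI-negative cells with Siglec-F and CD11c, sorted from lungs of adult C57BL6 mice with floxed Pikfyve alleles and LysM-Cre, a recombinase under the lysozyme 2 gene, which myeloid cells express. The array labelled wild type (the wild type-labelled array below) holds RNA of the same sort from adult C57BL6 littermates with the floxed Pikfyve alleles, described without a Cre. The sources used here do not give the number of mice behind each RNA, and an effect of the Cre itself cannot be told apart from an effect of losing PIKfyve.

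ABC proteins use ATP bound by a conserved cassette to move lipids, drugs, conjugates, peptides, metal complexes or porphyrins across membranes. Subfamily A moves mainly lipids, B and C hold the multidrug exporters as well as mitochondrial, lysosomal and channel-regulating members, D serves peroxisomes and the lysosome, and G holds sterol and drug exporters. Subfamilies E and F keep the cassette but have no membrane part, and act on ribosomes.

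With 1 array for each genotype there is no replicate error, and no difference below was tested. Values are log2 RMA signals, differences subtract the wild type-labelled array from the knockout-labelled one, and a fold is 2 raised to such a difference. Pikfyve itself read 5.95 in the knockout-labelled array and 5.68 in the wild type-labelled array; the position of its probes against the deleted exons is unknown here, so this row does not check the labels. The sort was checked against 13 measured alveolar macrophage markers, and all 13 lay above background on both arrays, with a summed linear signal of 44656 in the knockout-labelled array and 40222 in the wild type-labelled array. They were split in direction. Of the 13, 2 passed 1.5-fold upward (Fabp5 at 0.72 and Fabp4 at 0.62), beside 4.45% of all genes analysed. Downward, 3 passed it (Krt79 at -0.98, Lpl at -0.72 and Siglecf at -0.73), beside 2.66%. Siglecf, a gene of the sort, read 8.54 in the knockout-labelled array and 9.27 in the wild type-labelled array, and Itgax, which encodes CD11c, read 10.39 in the knockout-labelled array and 10.03 in the wild type-labelled array. The background level is the 95th percentile of 1428 olfactory, vomeronasal and taste receptor genes, 5.31 in the knockout-labelled array and 5.37 in the wild type-labelled array. The filter kept genes whose mean over the arrays was at least 5.13, the median of the whole table, which left 12516 genes. In sorted cells measured in bulk, a change in the share of a cell type and a change in RNA per cell cannot be told apart.

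Abcg2 was the 1 ABC gene that stood apart. It encodes the breast cancer resistance protein, an exporter of porphyrins, urate, drugs and dyes. Because this gene carries the result, the 250 bases before each of its 3 start sites in RefSeq (mouse build GRCm38.p6) are shown, 5′ to 3′. Capitals mark matches, on either strand, to 6 of the short motifs that were searched: TGACGTCA (the cAMP response element), TGACNNNGC (the core of the antioxidant response element), GTCACGTG (a CLEAR-like E-box), GCGTG (the core of the xenobiotic response element), AGGTCA (a nuclear receptor half-site) and GAGGAA (the core bound by PU.1).
Abcg2 start site 1 (chr6:58584283-58584532, plus strand): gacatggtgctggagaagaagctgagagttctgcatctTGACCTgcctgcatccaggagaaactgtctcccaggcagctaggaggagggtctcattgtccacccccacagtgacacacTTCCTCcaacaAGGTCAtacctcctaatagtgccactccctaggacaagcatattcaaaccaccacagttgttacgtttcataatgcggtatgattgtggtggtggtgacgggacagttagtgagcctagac
Abcg2 start site 2 (chr6:58596422-58596671, plus strand): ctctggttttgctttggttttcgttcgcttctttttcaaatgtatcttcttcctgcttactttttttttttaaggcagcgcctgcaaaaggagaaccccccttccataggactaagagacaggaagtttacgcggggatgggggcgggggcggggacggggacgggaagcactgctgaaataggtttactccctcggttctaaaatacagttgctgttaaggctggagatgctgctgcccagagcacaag
Abcg2 start site 3 (chr6:58640296-58640545, plus strand): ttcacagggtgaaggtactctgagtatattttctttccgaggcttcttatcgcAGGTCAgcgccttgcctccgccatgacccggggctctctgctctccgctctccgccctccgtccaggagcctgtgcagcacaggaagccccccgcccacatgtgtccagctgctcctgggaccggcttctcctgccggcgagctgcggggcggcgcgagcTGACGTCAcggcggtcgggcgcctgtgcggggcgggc

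The start sites differed in their letters, and the bases before the second matched none of these 6. The third held TGACGTCA, its first base at position -37 from the start, which 1.79% of the 32851 windows in the RefSeq table contain, each window running from 250 bases before to 50 bases after a start. Among the other ABC genes with a window, Abce1 also held it. AGGTCA was found before the first and the third start site of Abcg2 and in 16.3% of all windows, and GAGGAA, read on the opposite strand as TTCCTC, before the first and in 28.3%. GCGTG (32.4% of all windows) matched in the third window and GAGGAA in the first and second windows, all past the start and so outside the bases shown. Neither TGACNNNGC (12.4%) nor GTCACGTG (2.25%) occurred in the windows of Abcg2. The search covered 14 motifs, and the 6 shown were kept after their matches had been seen, so no weight rests on the choice. Of the other 8, the relaxed antioxidant response element (TGANNNNGC), the TATA box (TATAAA) and the CCAAT box matched in windows of Abcg2, and 41.3%, 13.6% and 37.4% of all windows hold them. The E-box (CACGTG), the hypoxia response core (ACGTG), the direct repeats bound by PPAR and by LXR and the sterol response element did not match there; 7.15%, 19.6%, 0.0396%, 0.0152% and 0.0913% of all windows hold these, in that order. The relaxed antioxidant element includes the stricter form above, and the CLEAR-like motif includes the E-box and the hypoxia core. The motif TGACNNNGC can overlap the reverse of AGGTCA, since both may begin with TGAC. The array has 1 row for Abcg2 and does not say which start site was used.

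Abcg2 (Entrez 26357, chromosome 6) read 9.25 in the knockout-labelled array and 6.77 in the wild type-labelled array. Both values lay above background, so the gene passed the filter on either array alone. The difference of 2.48, a 5.58-fold higher signal, ranked 10 among the positive differences of the 12516 genes. It equals 7.81 local spreads, a local spread being the scaled median absolute deviation of the differences of genes of similar level (0.32 here), which holds noise and real differences alike.

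The neighbouring genes on chromosome 6 that were above background, Herc3 and Tigd2, did not share this difference. Herc3, the next measured gene on one side, read 5.56 in the knockout-labelled array and 5.49 in the wild type-labelled array. Tigd2, 4 places on, read 7.84 in the knockout-labelled array and 7.78 in the wild type-labelled array. The other 3 of the 5 measured genes on that side, Nap1l5, Fam13a and Gprin3, were at background on both arrays, and so were the 5 vomeronasal receptor genes on the other side. For these genes at background a shared difference could not be judged.

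**Figure D1:**
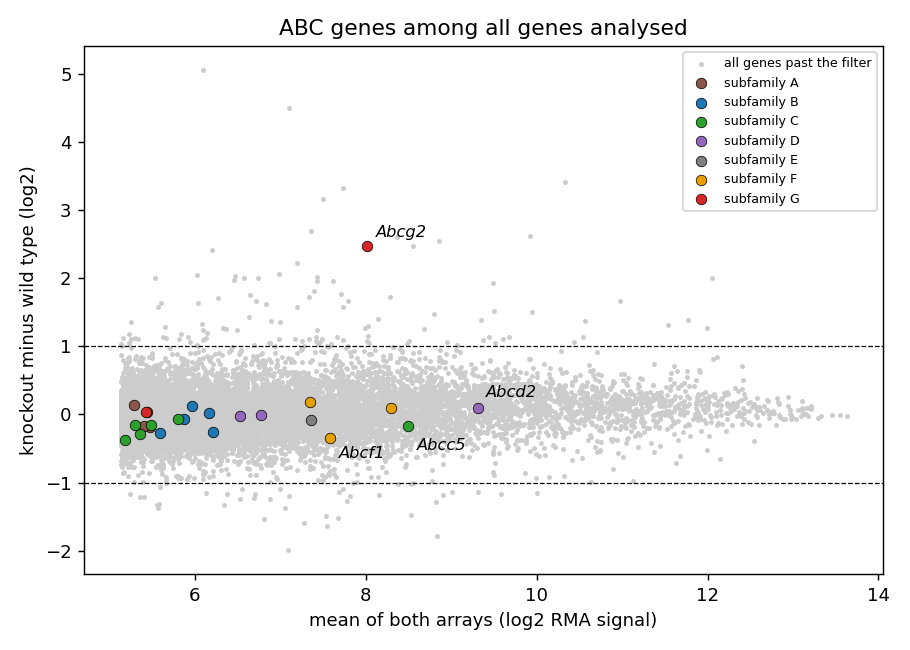
Difference of each gene (knockout-labelled minus wild type-labelled array, log2) against the mean of both arrays (log2 RMA signal) for 12516 genes in grey, with the 24 ABC genes past the filter coloured by subfamily. Dashed lines mark a 2-fold difference. Abcg2 lies at 2.48 and the other 23 ABC genes between -0.38 and 0.18.

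Of the 46 ABC genes, 24 passed the filter (52.2%, against 56.4% of all genes). Among these 24, 1 gene was at least 2-fold higher in the knockout-labelled array, against a background of 0.927% of all genes analysed, and 0 were at least 2-fold lower, against 0.336%. At 1.5-fold the counts were again 1 higher and 0 lower, against 4.45% and 2.66% of all genes. That 1 gene was Abcg2 at both thresholds. The other 23 ABC genes stayed between -0.38 and 0.18, and 95.8% of the 24 were under 1.5-fold, against 92.9% of all genes analysed. Only 4 of the 24 (16.7%) differed by more than 1 local spread, against 34.6% of all genes. These were Abcg2, Abcc4, Abcc10 and Abcf1, the last 3 lower in the knockout-labelled array. Of those 3, Abcc4 was below background on both arrays and Abcc10 in the knockout-labelled array. The median of the 24 was -0.06, against 0.00 for all genes analysed. As deposited, 9 were higher and 15 lower; the split was 12 and 12 with each array centred on its median, 10 and 14 after quantile normalisation and 11 and 13 after loess centring, so no direction is given for the family.

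Among the remaining exporters of drugs and conjugates, the signals on the arrays were close to each other. Abcc5, which exports cyclic nucleotides and haem, read 8.41 in the knockout-labelled array and 8.58 in the wild type-labelled array. Abcb1a, one of the P-glycoproteins of the mouse, read 6.17 in the knockout-labelled array and 6.16 in the wild type-labelled array, a difference of 0.02. Abcc1, the multidrug resistance protein that exports glutathione conjugates and leukotriene C4, read 5.77 in the knockout-labelled array and 5.84 in the wild type-labelled array. None of the 3 differed by as much as its local spread.

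The other exporters of this group lay near background. Abcc6, whose loss causes ectopic mineralisation, read 5.46 in the knockout-labelled array and 5.43 in the wild type-labelled array. Abcc10, a transporter of lipophilic drugs, was at background in the knockout-labelled array (5.22) and read 5.50 in the wild type-labelled array. Counted from the background level instead of 5.22, it was 1.14-fold lower, with no replicate error to bound this value. Abcc4, an exporter of cyclic nucleotides and prostaglandins, read 4.99 in the knockout-labelled array and 5.37 in the wild type-labelled array, below background on both, so no fold is given. Abcb1b, the second P-glycoprotein, did not reach the filter. It read 5.49 in the knockout-labelled array and 4.71, at background, in the wild type-labelled array. Counted from the background level instead of 4.71, it was 1.08-fold higher, again with no replicate error. Abcb1a and Abcb1b are closely related in sequence, as are Abcg2 and Abcg3, and the sources used here do not say whether they share probes. Abcg3 was below background on both arrays, at 4.05 in the knockout-labelled array and 4.48 in the wild type-labelled array. The bile transporters Abcb4, Abcb11, Abcc2 and Abcc3, and Abcb5 and Abcc12, were also below background on both arrays.

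Transporters of organelles were measured above background and differed little. Abcd2, which brings very long chain fatty acids into peroxisomes, read 9.36 in the knockout-labelled array and 9.26 in the wild type-labelled array. Abcd3, another transporter of the peroxisomal membrane, read 6.78 in both arrays. Abcd4, needed for cobalamin to leave the lysosome, read 6.52 in the knockout-labelled array and 6.54 in the wild type-labelled array. The 3 measured genes of subfamily D thus lay between -0.02 and 0.10.

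Of the mitochondrial and lysosomal members of subfamily B, all 4 measured passed the filter, and 3 read lower in the knockout-labelled array. Abcb6, a porphyrin transporter of mitochondria and the endolysosomal system, read 6.08 in the knockout-labelled array and 6.34 in the wild type-labelled array. Abcb9, the lysosomal peptide transporter TAPL, read 5.46 in the knockout-labelled array and 5.72 in the wild type-labelled array. Abcb10, of the mitochondrial inner membrane, read 6.02 in the knockout-labelled array and 5.90 in the wild type-labelled array, and Abcb8, of the same membrane, read 5.84 in the knockout-labelled array and 5.90 in the wild type-labelled array. Each of the 4 differences was smaller than its local spread.

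Subfamily A was mostly not detected: 12 of its 15 measured genes were below background on both arrays. Abca3, which loads phospholipid into the lamellar bodies of alveolar type 2 cells, read 5.39 in the knockout-labelled array and 5.57 in the wild type-labelled array. Markers of those cells were present beside it, with 5 of 9 above background on each array and a summed linear signal of 1583 in the knockout-labelled array and 1689 in the wild type-labelled array. That sum turns on Napsa, which read 9.07 in the knockout-labelled array and 9.91 in the wild type-labelled array; without it the sum was 1045 in the knockout-labelled array and 724 in the wild type-labelled array. Of the surfactant protein genes, Sftpc and Sftpa1 were 1.72-fold and 1.80-fold higher. Sftpb and Sftpd were below background on both arrays and differed by -0.09 and -0.10. Of the 7 type 2 cell markers past the filter, 3 were higher and 4 lower. The part of these cells in the signal of Abca3 was not tested. Abca7, linked to phospholipid transport and phagocytosis, read 5.32 in the knockout-labelled array and 5.48 in the wild type-labelled array. Abca5, of late endosomes and lysosomes, read 5.36 in the knockout-labelled array and 5.22, at background, in the wild type-labelled array. Below background on both arrays were Abca2, Abca4, Abca6, Abca8a, Abca8b, Abca9 and Abca12 to Abca17, and for Abca14 both arrays held the same value, 4.36.

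The ribosome-acting members were detected throughout. Abce1, which splits ribosomes after termination, read 7.32 in the knockout-labelled array and 7.40 in the wild type-labelled array. Abcf1, a translation initiation factor, read 7.41 in the knockout-labelled array and 7.76 in the wild type-labelled array, which is -0.34 apart where the local spread is 0.31. Abcf2 read 8.35 in the knockout-labelled array and 8.25 in the wild type-labelled array, and Abcf3 read 7.44 in the knockout-labelled array and 7.25 in the wild type-labelled array. The 4 genes were split, 2 higher and 2 lower.

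The regulators of ATP-sensitive potassium channels were near background. Abcc9 read 5.40 in the knockout-labelled array and 5.56 in the wild type-labelled array, and its channel partner Kcnj8 was below background at 4.14 in the knockout-labelled array and 4.79 in the wild type-labelled array. Abcc8 was at background in the knockout-labelled array (5.23) and read 5.38 in the wild type-labelled array. Of the sterol transporters, Abcg4 read 5.45 in the knockout-labelled array and 5.41 in the wild type-labelled array, while Abcg5 and Abcg8, partners in sterol export by liver and gut, were below background on both arrays. The sterol exporters left out of the selection read 5.58 in the knockout-labelled array and 6.04 in the wild type-labelled array for Abca1, and 7.87 in the knockout-labelled array and 8.13 in the wild type-labelled array for Abcg1.

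**Figure D2:**
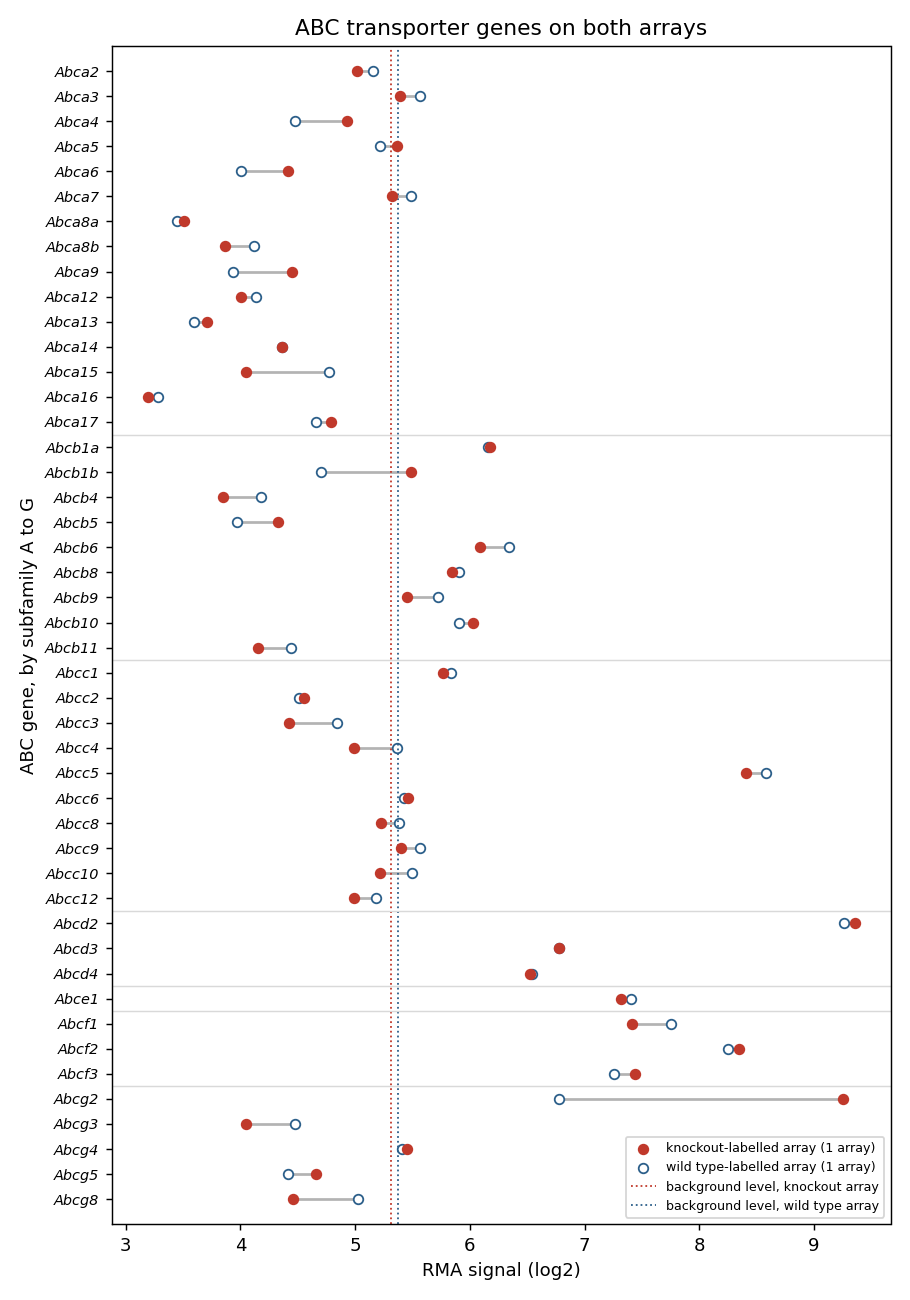
RMA signal (log2) of all 46 ABC genes, by subfamily, in the knockout-labelled array (filled points) and the wild type-labelled array (open points), 1 array each, with dotted lines at the background levels of 5.31 and 5.37. The points of Abcg2 lie at 9.25 and 6.77, and 20 of the 46 genes lie above background on both arrays.

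Some undetected ABC genes lay side by side on a chromosome. RefSeq places Abca8b, Abca8a, Abca9, Abca6 and Abca5 next to each other among the measured genes of chromosome 11, and of these 5 only Abca5 passed the filter. Abca14, Abca15 and Abca16 lie side by side on chromosome 7 and none of the 3 passed it. Of the neighbours Abca17 and Abca3 on chromosome 17, Abca3 passed and Abca17, at 4.79 in the knockout-labelled array and 4.66 in the wild type-labelled array, did not.

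Start sites of the ABC genes past the filter were richer in CpG dinucleotides, which mark promoters of broadly expressed genes. The RefSeq table holds 44 windows for 37 of the 46 genes, and where a gene has several, the one with the most CpGs was counted. This rule raises the count of genes with several windows, such as Abcc4 (41 and 6) past the filter and Abcg8 (21 and 6) below it. More such genes lay past the filter than below it. The 17 genes past the filter had a median of 27 CpGs per window (range 2 to 45), and the 20 below it a median of 9.5 (range 1 to 26). Over all genes with a window the medians were 21 for 9887 genes past the filter and 5 for 7103 below it, so the ABC genes show the pattern of all genes. This is a description, without a test. The ends of the range are shown by Abcd3 and Abcc2, with each CpG in capitals in the 250 bases before the start (GRCm38.p6).
Abcd3 (chr3:121815303-121815552, minus strand): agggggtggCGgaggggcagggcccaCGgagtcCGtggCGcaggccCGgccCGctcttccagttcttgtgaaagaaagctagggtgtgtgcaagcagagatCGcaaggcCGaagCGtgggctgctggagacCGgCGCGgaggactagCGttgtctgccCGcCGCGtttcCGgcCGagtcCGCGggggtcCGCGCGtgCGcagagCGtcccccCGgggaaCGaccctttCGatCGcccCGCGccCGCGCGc
Abcc2 (chr19:43782058-43782307, plus strand): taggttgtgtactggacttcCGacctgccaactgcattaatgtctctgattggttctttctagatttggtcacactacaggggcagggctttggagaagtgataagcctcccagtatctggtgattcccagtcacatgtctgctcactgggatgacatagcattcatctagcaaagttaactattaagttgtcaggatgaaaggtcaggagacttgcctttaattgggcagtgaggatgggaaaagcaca

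In these 250 bases Abcd3 had 34 CpGs and Abcc2 had 1. Abcb1a went against the pattern, with 2 CpGs in its window and a signal above background on both arrays. Some genes below the filter also went against it, among them Abca2 with 26 CpGs and Abca14 with 22. The start sites of Abcg2 differed among themselves, from 3 to 28 CpGs per window.

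**Figure D3:**
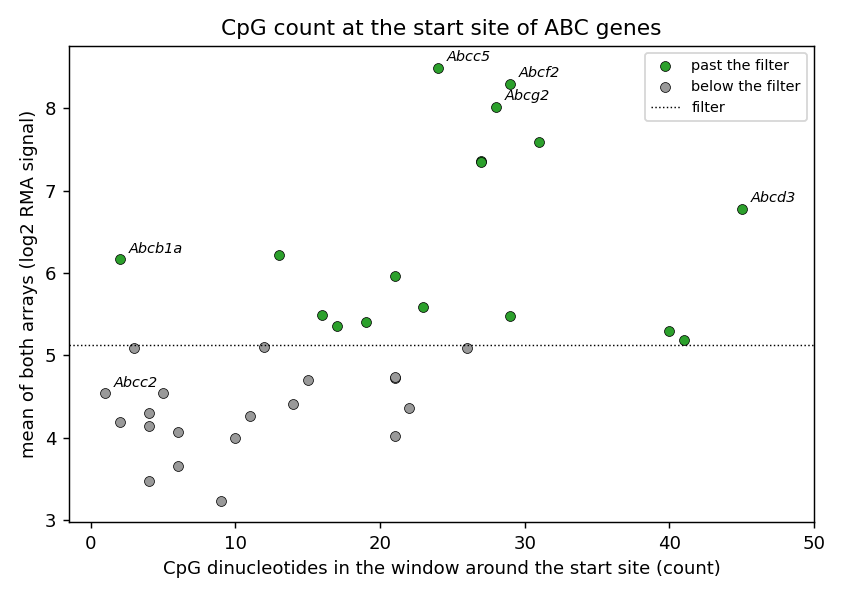
Mean of both arrays (log2 RMA signal) against the number of CpG dinucleotides in the window around the start site for the 37 ABC genes with a window, green past the filter and grey below it. Genes past the filter (dotted line at 5.13) have a median of 27 CpGs and those below it 9.5.

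Genes that work with ABC proteins were read from lists of related pathways. Glutathione and conjugation enzymes, which make substrates of the subfamily C exporters, had a median of 0.27 over 11 genes, with 8 higher and 3 lower; of the 11, 4 passed 1.5-fold upward and 0 downward, beside 4.45% and 2.66% of all genes. Gsta4 read 6.75 in the knockout-labelled array and 5.42 in the wild type-labelled array, Gsta3 read 6.22 in the knockout-labelled array and 5.10, at background, in the wild type-labelled array, and Gstm1 and Mgst2 differed by 0.96 and 0.91. These 4 encode glutathione transferases, which join glutathione to reactive compounds. The exporter of such conjugates, Abcc1, differed by -0.07.

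Abcg2 and Abcb6 carry porphyrins, intermediates of the haem pathway. Haem and iron-sulphur cluster genes, read as 1 list, had a median of 0.22 over 12 genes, with 8 higher, 4 lower and none 1.5-fold apart. Urod, uroporphyrinogen decarboxylase, read 10.01 in the knockout-labelled array and 9.47 in the wild type-labelled array. The scaffold gene Iscu differed by 0.49, Isca2 by 0.42 and Uros by 0.41. The 4 lower genes were Slc25a37 at -0.38, Ppox at -0.38, Alas1 at -0.30 and Slc25a38 at -0.19. Xenobiotic sensing factors, which include known regulators of drug exporters, had a median of -0.09 over 9 genes, with 3 higher, 6 lower and none 1.5-fold apart. Among them Epas1 differed by 0.39, Hif1a by -0.33, Rxra by 0.28 and Keap1 by -0.25, and the aryl hydrocarbon receptor gene Ahr read 5.41 in the knockout-labelled array and 5.49 in the wild type-labelled array. Whether any of these factors has a part in the difference of Abcg2 was not tested.

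Peroxisome genes had a median of -0.02 over 17 genes, with 7 higher and 10 lower. Pex19, whose product delivers peroxisomal membrane proteins including those of subfamily D, was the 1 gene of 17 at least 1.5-fold apart, at 7.86 in the knockout-labelled array and 6.94 in the wild type-labelled array. Of all genes 7.11% were that far apart in either direction, so this count is no result about the list. Pex11a differed by -0.56, Pex6 by -0.53 and Hsd17b4 by -0.38. Genes acting with Abce1 and the ABCF proteins on ribosomes had a median of -0.12 over 7 genes, 1 higher and 6 lower, with Eif3j1 at 0.83, Gspt1 at -0.29, Etf1 at -0.29 and Gcn1 at -0.13.

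Solute carriers of drugs and nutrients had a median of 0.00 over 9 genes, 4 higher and 5 lower. The peptide carrier gene Slc15a2 read 7.20 in the knockout-labelled array and 6.19 in the wild type-labelled array, the carnitine carrier gene Slc22a5 read 5.93 in the knockout-labelled array and 6.66 in the wild type-labelled array, Slc15a3 differed by -0.49 and Slc29a3 by 0.15. The ABC genes that carry other symbols were Tap1 and Tap2, the peptide transporter of antigen presentation, at -0.28 and -0.46, and Cftr, below background on both arrays.

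**Figure D4:**
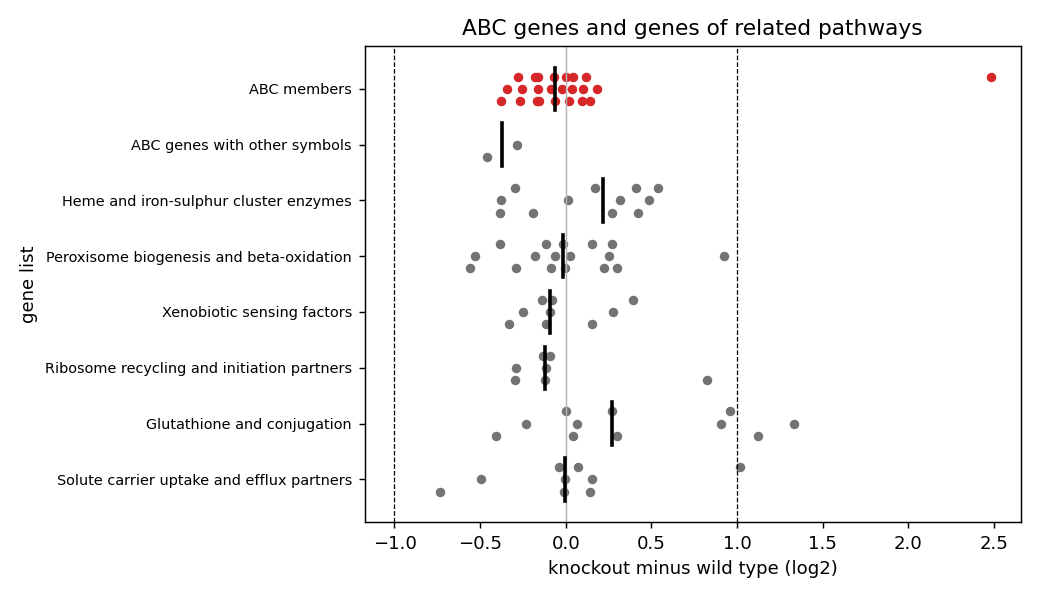
Differences (knockout-labelled minus wild type-labelled array, log2) of the 24 ABC genes past the filter (red) and of the genes past the filter in 7 related lists (grey), with a bar at each median and dashed lines at 2-fold. Abcg2 is the red point at 2.48, and the list medians run from -0.37 for Tap1 and Tap2 to 0.27 for glutathione and conjugation.

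Markers of other cells were read beside Abcg2. Endothelium, which is known to express Abcg2, had 3 of 9 markers above background on each array. Its summed linear signal was 320 in the knockout-labelled array and 330.04 in the wild type-labelled array. The 3 were Vwf, which differed by 0.16, Egfl7 by -0.09 and Pecam1 by -0.21. Cdh5, Cldn5, Esam, Kdr, Tek and Tie1 were below background on both arrays. Airway epithelium had 8 of 9 markers above background in the knockout-labelled array and 7 in the wild type-labelled array, with sums of 8056 in the knockout-labelled array and 6374 in the wild type-labelled array. Most of that sum is Scgb1a1, the club cell secretoglobin, without which it was 2681 in the knockout-labelled array and 1480.0 in the wild type-labelled array. Of the 8 airway markers past the filter, 6 were higher and 2 lower. At 1.5-fold, 3 were higher and 1 lower, beside 4.45% and 2.66% of all genes analysed. Bpifa1, a secreted airway protein, was 5.53-fold higher, about as far apart as Abcg2. Scgb3a1 was 2.77-fold and Scgb3a2 1.99-fold higher, and the adhesion molecule gene Epcam was 3.98-fold lower. For T and NK cells 5 of 6 were above background on each array. The sums were 990.2 in the knockout-labelled array and 628 in the wild type-labelled array. Of the 5 past the filter, 4 were higher and 1, Cd3e at -0.13, was lower. At least 1.5-fold higher were 2 of the 5, Gzma at 1.14 and Cd3d at 0.78, beside 4.45% of all genes analysed. For neutrophils 6 of 6 were above background, with sums of 8852 in the knockout-labelled array and 6499.6 in the wild type-labelled array. Of the 6, 4 passed 1.5-fold upward and 1, Csf3r, downward, beside 4.45% and 2.66% of all genes analysed. Fibroblast and pericyte markers summed to 242 in the knockout-labelled array and 233 in the wild type-labelled array. Only 2 of these 8 were above background in the knockout-labelled array and 1 in the wild type-labelled array, so most markers in these sums were at background. Of the erythroid list only Slc4a1 was measured, at 5.49 in the knockout-labelled array and 5.81 in the wild type-labelled array. The part of RNA from any of these cell types, endothelium included, in the difference of Abcg2 was not tested.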

How the data were processed

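The deposited table holds log2 values of 2 arrays, which the authors made with RMA (per the submitters' processing notes). This method subtracts background, brings the arrays to one distribution and combines the probes of a row; array signals tend to compress large folds. No version, annotation or build is named in the sources used here, and base 2 is inferred from RMA and the value range. The medians were 5.10 in the knockout-labelled array and 5.17 in the wild type-labelled array. Of 41345 rows, 23521 have 1 gene symbol in the platform annotation, 1814 have several and 16010 are not listed; only the first were named, and rows of a gene were averaged. All 46 ABC genes matched RefSeq (GRCm38.p6) by Entrez identifier.

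Genes, lists and thresholds were chosen with earlier results of these data known. Every selected gene is named, with values for those past the filter; of each related list, up to 4 genes with the largest absolute difference are given, and others named were chosen after their values were seen. For the local spread, genes past the filter were put into 20 bins by mean level, and the median absolute deviation of their differences was multiplied by 1.4826. With 1 array per genotype no p-value or error was computed; the number of arrays limits the precision. Alternatives were 3 filters, 3 scalings, an offset of 32, the highest row per gene and a 3-fold threshold. The scripts (Python 3.11.15, pandas 2.3.3, statsmodels 0.14.6) were tested on simulated data.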

Additional observations from a re-analysis of the deposited data

How the results depend on the processing

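The count of ABC genes at least 2-fold higher stayed at 1 and that at least 2-fold lower at 0 under all 9 alternatives, a 3-fold threshold included. The difference of Abcg2 ran from 2.18 with the offset of 32 to 2.55 with median centring over 8 alternatives. The 3 filters and the highest row per gene could not change it from 2.48. A filter does not alter a difference, and Abcg2 has 1 row. With no filter on low values, 2 ABC genes were at least 1.5-fold higher, the second being Abcb1b, and 1 was at least 1.5-fold lower, Abca15, which was below background on both arrays (4.05 in the knockout-labelled array, 4.77 in the wild type-labelled array). The median of the ABC genes ran from -0.06 to 0.00, and median centring shifted the median of all genes by 0.07. The median of subfamily G, 1.26 over Abcg2 and Abcg4, was 0.042 with no filter, where 5 genes enter, and 2.48 when only rows in the upper range by level (75th percentile) were kept, which left Abcg2 alone; the medians of subfamilies A to F each moved by less than 0.29, the spread of all genes, under the alternatives that gave a value. Subfamilies A and B had no gene in that upper range. No paired analysis was possible because there is 1 array for each genotype. Signal over background limits what can be said of the 22 ABC genes below background on both arrays.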
